A study of Homo sapiens with 9 samples.

Results

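The genes examined were 10 cytosolic aminoacyl-tRNA synthetases: AARS1, CARS1, EPRS1, GARS1, IARS1, MARS1, NARS1, SARS1, WARS1 and YARS1. They were picked by name, older symbols included, with earlier results of these data known, and all 10 were measured. They were 10 of 12165 genes on the array, and 16 of its 19724 single-gene probe sets matched them. RNA came from LNCaP, a human prostate cancer cell line that grows in response to androgen, kept for 2 days in medium with charcoal-stripped serum, from which steroid hormones are largely removed. The first group received 1 nM R1881, a synthetic androgen, together with 1.25 µM celastrol, a plant triterpenoid. The androgen group received 1 nM R1881 and DMSO, and the vehicle group ethanol and DMSO. Each group had 3 Affymetrix arrays, and all cells had been starved of androgen. The arrays with androgen plus celastrol are called celastrol arrays. The treatment lasted 24 h according to the protocol, but the titles of the androgen arrays give 6 h. This conflict touches every comparison that uses the androgen group and leaves androgen plus celastrol against vehicle untouched.

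Each aminoacyl-tRNA synthetase joins 1 kind of amino acid to its tRNA, the step that sets which amino acid a codon adds to a protein. In human cells most of the cytosolic enzymes work on their own, while EPRS1, IARS1, MARS1 and several others sit with scaffold proteins in the multi-synthetase complex. A separate set of nuclear genes encodes the enzymes of the mitochondrion. Shortage of amino acids and several other stresses lead to phosphorylation of the translation factor eIF2, which lowers protein synthesis while favouring translation of the transcription factor ATF4. ATF4 binds C/EBP-ATF response elements, and many cytosolic synthetase genes are among its known targets. WARS1 is also a textbook interferon-induced gene.

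Promoter sequences are shown because they place that element beside the genes whose RNA was measured. RefSeq windows of 300 bases (GRCh38.p14, 250 before to 50 after an annotated start) were given for 9 of the 10 genes, in 13 entries; YARS1 is named only. The element was searched as TGATGNAA on both strands, with position 1 as the first transcribed base and no position 0. It was found in 6 of the 9 genes, against 3.62% of 35116 promoters and 3.44% of the 9711 measured genes that had a window. The form TGATGCAA, which is a case of the first motif, was found in 5 of the 9, against 0.866% of promoters and 0.947% of those genes. A match is a run of letters, and binding was not measured here. In the windows of 30 bases below, capitals mark the element, read 5′ to 3′ on the gene's strand, and each name is followed by the sequence.

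GARS1: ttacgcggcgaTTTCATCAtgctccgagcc

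IARS1: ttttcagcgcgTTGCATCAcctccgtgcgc

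CARS1: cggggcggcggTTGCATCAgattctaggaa

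MARS1: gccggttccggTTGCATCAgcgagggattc

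AARS1: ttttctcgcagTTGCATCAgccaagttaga

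NARS1: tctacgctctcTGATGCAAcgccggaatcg

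The GARS1 window lies at chr7:30594834-30594863 on the plus strand, with the element at -33 to -26 of 1 of its annotated starts. The IARS1 window lies at chr9:92293692-92293721 on the minus strand, with the element at -13 to -6. In CARS1 (chr11:3057407-3057436, minus) the element spans the start, from -2 to 6, and in MARS1 (chr12:57488053-57488082, plus) it runs from -4 to 4. In AARS1 (chr16:70289675-70289704, minus) it is farther upstream, at -187 to -180. In NARS1 (chr18:57621804-57621833, minus) it lies within the transcribed part, at 15 to 22, and in the opposite orientation. Thus 5 of the 6 genes carry the same 8 letters or their reverse complement, 4 of them within 22 bases of the start. GARS1 carries TTTCATCA, which has A at the open base when read as TGATGNAA on the other strand.

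The bases upstream of the IARS1 start show where such an element sits in a whole promoter. They are chr9:92293698-92293947, read on the minus strand up to position -1, with the element in capitals.

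IARS1 upstream: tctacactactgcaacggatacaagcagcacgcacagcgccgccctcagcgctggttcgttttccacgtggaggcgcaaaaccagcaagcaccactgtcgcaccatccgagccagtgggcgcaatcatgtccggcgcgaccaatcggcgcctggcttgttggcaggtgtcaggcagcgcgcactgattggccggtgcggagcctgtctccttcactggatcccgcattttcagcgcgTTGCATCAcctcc

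The windows of EPRS1, SARS1 and WARS1 held no such letters. WARS1 alone held an interferon-stimulated response element, searched as GAAA, any 2 bases and GAAA, which 3.57% of promoters and 4.14% of the measured genes with a window hold. It lies at -55 to -46 of 1 annotated WARS1 start (chr14:100375383-100375412, minus), in capitals here.

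WARS1: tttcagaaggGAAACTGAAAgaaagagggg

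In all, 8 motifs were searched, and a gene may have several windows, so shares are given over promoters and over measured genes with a window. The antioxidant response element core TGACNNNGC was found in GARS1 and WARS1, against 13.3% of promoters and 19.3% of genes. CCAAT was found in 5 of the 9 genes (AARS1, CARS1, IARS1, NARS1 and WARS1), against 34.6% of promoters and 44.3% of genes. The cyclic AMP response element TGACGTCA was found in 0 of the 9 genes, against 1.85% of promoters and 3.57% of genes. The heat shock element was searched as 3 units, alternating GAA and TTC and starting with either, with any 2 bases between units; it was found in 0 of the 9, against 0.49% of promoters and 0.577% of genes. The ER stress response element, searched as CCAAT, any 9 bases and CCACG, was also found in 0 of the 9, against 0.077% of promoters and 0.134% of genes.

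Median probe set intensity was 72.2 to 80.2 on the 9 arrays, and vehicle array 3 stood apart from the others. The upper quartile of vehicle array 3 was 332.5, where the other 8 arrays had 377.4 to 408.7, and its deviations from the group mean had an SD of 0.308 log2, against at most 0.201. The 5 measured luminal prostate markers lay between the 91.7th and 99.6th percentile of all probe sets by mean intensity, and 10 markers of other cell types between the 19.0th and 46.7th. The summed intensity of those 10 markers was 397 to 413 with androgen plus celastrol, 385 to 443 with androgen and 409 to 572 with vehicle. HMOX1, a heme oxygenase induced by celastrol, read 4701 to 6510.1 with androgen plus celastrol, 51.7 to 80.1 with androgen and 52.8 to 91.4 with vehicle. KLK3, the androgen target that encodes prostate-specific antigen, read 7171 to 7904 with androgen plus celastrol, 13455 to 14078 with androgen and 3011 to 3270.5 with vehicle. The labels call the 3 arrays of a group biological replicates and do not describe the cultures further, so p-values measure the spread between these samples. In RNA from whole cultures, fewer cells of a type and less RNA per cell cannot be told apart.

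With androgen plus celastrol, 9 of the 10 synthetase genes were higher than with androgen alone, and 0 were lower. The background was 9.0% of 12165 genes called higher in the same fit (limma, adjusted p under 0.05). The median log2 fold change of the 10 was 0.71, against 0.02 over all genes. The celastrol arrays lay above the androgen arrays without overlap for all 10, which 20.4% of genes also did. The largest rises, in GARS1 and SARS1, were about 2.09-fold and 2.02-fold, and the smallest called, in NARS1, was 1.21-fold. MARS1 did not pass.

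GARS1, which charges tRNA with glycine in both the cytosol and the mitochondrion, had intensities of 5739, 6012 and 5996 with androgen plus celastrol, 2833, 2886 and 2759.9 with androgen, and 2446, 2462 and 2366 with vehicle. The 3 groups did not overlap, and their order was androgen plus celastrol, androgen, vehicle. The rise against androgen was 1.07 ± 0.07 (log2, SE; 95% interval 0.91 to 1.22; limma, adjusted p = 3.64e-05), which ranked 141 of 12165 genes. SARS1, which charges serine and also supplies the seryl-tRNA from which selenocysteine is made, had 4157, 4549 and 4280.0 with androgen plus celastrol, 2210.3, 2039 and 2181 with androgen, and 2167, 2154 and 2010.5 with vehicle. Here the androgen and vehicle arrays overlapped and only the celastrol arrays stood above. SARS1 rose by 1.01 ± 0.08 against androgen (limma, adjusted p = 7.86e-05), ranking 159. Its window held no C/EBP-ATF letters, and a link between the element and RNA change was not tested.

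CARS1, the cysteine enzyme, had 4730.3, 4406 and 4113 with androgen plus celastrol, 2514, 2301 and 2401 with androgen, and 2123, 1961 and 2223 with vehicle. The 3 groups did not overlap, and the rise against androgen was 0.88 ± 0.09 (limma, adjusted p = 0.000284). YARS1, the tyrosine enzyme, had 3606, 3914 and 3776 with androgen plus celastrol, 2213, 2258 and 2265 with androgen, and 2011, 1974 and 1742 with vehicle. Its arrays were also separate in all 3 groups, and it rose by 0.75 ± 0.08 (limma, adjusted p = 0.000458). WARS1, the tryptophan enzyme, had 2045, 1817 and 1674 with androgen plus celastrol, 1080.3, 1058 and 1081 with androgen, and 968.5, 916 and 1058 with vehicle. All celastrol arrays of WARS1 lay far above its androgen arrays, which were just above the vehicle arrays. WARS1 rose by 0.78 ± 0.10 (limma, adjusted p = 0.00083).

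AARS1, the alanine enzyme, had 4228, 4459 and 4394 with androgen plus celastrol, 2836, 3012 and 2833 with androgen, and 3099, 3031 and 2309 with vehicle. Its vehicle arrays spanned the androgen arrays, with vehicle array 3 the lowest. AARS1 rose by 0.59 ± 0.12 against androgen (limma, adjusted p = 0.00828). NARS1, the asparagine enzyme, had 7327, 7151 and 6851 with androgen plus celastrol, 5942, 5662 and 6028 with androgen, and 5756, 6042 and 6183 with vehicle. The androgen and vehicle arrays of NARS1 were mixed, and the celastrol arrays lay above both. The rise was small, 0.27 ± 0.07 (95% interval 0.11 to 0.44; limma, adjusted p = 0.0333), and did not pass when any single array other than vehicle array 3 was left out (adjusted p of 0.0505 to 0.123). With a replicate block its adjusted p was 0.0778.

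Of the members that belong to the multi-synthetase complex, EPRS1, which charges both glutamate and proline, had 3120.2, 3767 and 4029 with androgen plus celastrol, 2405, 2255.5 and 2127 with androgen, and 2911, 3325 and 2478 with vehicle. It is the member whose androgen arrays were the lowest group, below every vehicle array. EPRS1 rose by 0.68 ± 0.13 against androgen (limma, adjusted p = 0.00864). IARS1, the isoleucine enzyme, had 8891, 8406 and 8881 with androgen plus celastrol, 6250.5, 6051 and 6089 with androgen, and 5208, 5438 and 5506 with vehicle. The IARS1 groups did not overlap, and it rose by 0.51 ± 0.07 (limma, adjusted p = 0.00144). MARS1, the methionine enzyme that also charges the initiator tRNA, had 2053, 2053 and 2411 with androgen plus celastrol, 1795, 1950.5 and 1633 with androgen, and 1565, 1647 and 1410.2 with vehicle. Its celastrol arrays lay just above the androgen arrays, and the difference of 0.28 ± 0.11 (95% interval 0.03 to 0.52; limma, adjusted p = 0.132) did not pass.

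**Figure D1:**
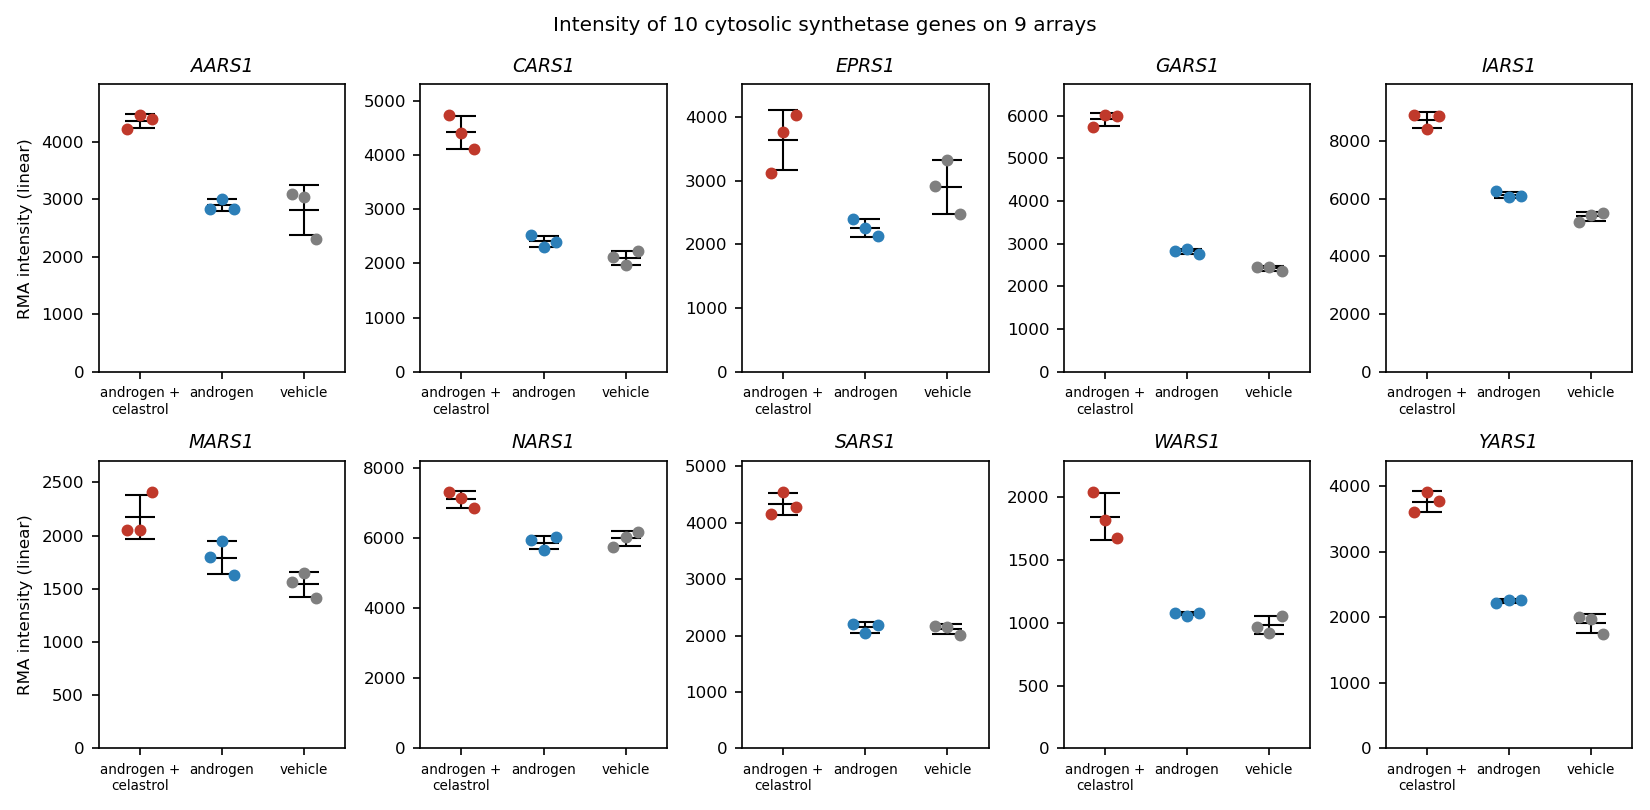
RMA intensity (linear, arbitrary units) of the 10 synthetase genes on the 9 arrays, with androgen plus celastrol, androgen and vehicle from left to right in each panel; points are arrays and bars are the mean ± SD (n = 3). The celastrol arrays lie above the androgen arrays in all 10 panels, and GARS1 shows the widest gap relative to its level, with means of 5916 with androgen plus celastrol, 2826 with androgen and 2425 with vehicle.

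Against vehicle, androgen plus celastrol left 9 of the 10 genes higher, with a background of 13.3% of genes called higher. The median was 0.80, against -0.01 over all genes, and the arrays of 9 members did not overlap, as for 20.1% of genes. This comparison shares the celastrol arrays with the previous one, so the 2 results are not independent. GARS1 rose by 1.29 ± 0.07 (limma, adjusted p = 5.84e-06), CARS1 by 1.07 ± 0.09 (adjusted p = 4.74e-05) and SARS1 by 1.04 ± 0.08 (adjusted p = 3.04e-05). YARS1 rose by 0.98 ± 0.08 and WARS1 by 0.91 ± 0.10 (limma, adjusted p = 5.39e-05 and 0.000184). IARS1 rose by 0.70 ± 0.07, AARS1 by 0.64 ± 0.12 and MARS1 by 0.49 ± 0.11 (limma, adjusted p = 0.000136, 0.00363 and 0.00945). The member that did not pass here was EPRS1, at 0.33 ± 0.13 (95% interval 0.02 to 0.63; limma, adjusted p = 0.119), whose lowest celastrol array (3120.2) lay below its highest vehicle array (3325). NARS1 rose by 0.25 ± 0.07 (limma, adjusted p = 0.0388) and again did not pass when any array other than vehicle array 3 was left out (adjusted p of 0.0575 to 0.122). With a replicate block its adjusted p was 0.0801.

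Androgen alone, set against vehicle, moved none of the 10 past the threshold: limma called 0 higher and 0 lower, where the background was 7.17% of genes higher and 5.84% lower. At an unadjusted p under 0.05 there were 4 members, and 23.4% of all genes passed that level in either direction. The median log2 fold change was 0.16, against -0.04 over all genes. The androgen arrays lay above the vehicle arrays without overlap in 5 members (CARS1, GARS1, IARS1, WARS1 and YARS1) and below them in EPRS1, as in 14.1% and 14.2% of genes. The differences were 0.24 ± 0.08 for YARS1 (limma, adjusted p = 0.106), 0.22 ± 0.07 for GARS1 (adjusted p = 0.0718) and 0.19 ± 0.07 for IARS1 (adjusted p = 0.133). EPRS1 differed the other way, by -0.35 ± 0.13 (95% interval -0.66 to -0.05; limma, adjusted p = 0.144). Without vehicle array 3 the EPRS1 difference was -0.46 and passed (limma, adjusted p = 0.0423). SARS1, at 0.02 ± 0.08 (95% interval -0.15 to 0.20), and NARS1, at -0.03 ± 0.07 (95% interval -0.19 to 0.14), were the members with the smallest differences. In this fit, then, limma separated androgen from vehicle in none of the 10, which does not show that their levels were equal. Under 18 alternatives for this comparison, GARS1 passed in 4, YARS1 in 3 and EPRS1 in 2. By limma, androgen plus celastrol stood above both other groups in every member except EPRS1 and MARS1. EPRS1 was separated from androgen only, and MARS1 from vehicle only.

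**Figure D2:**
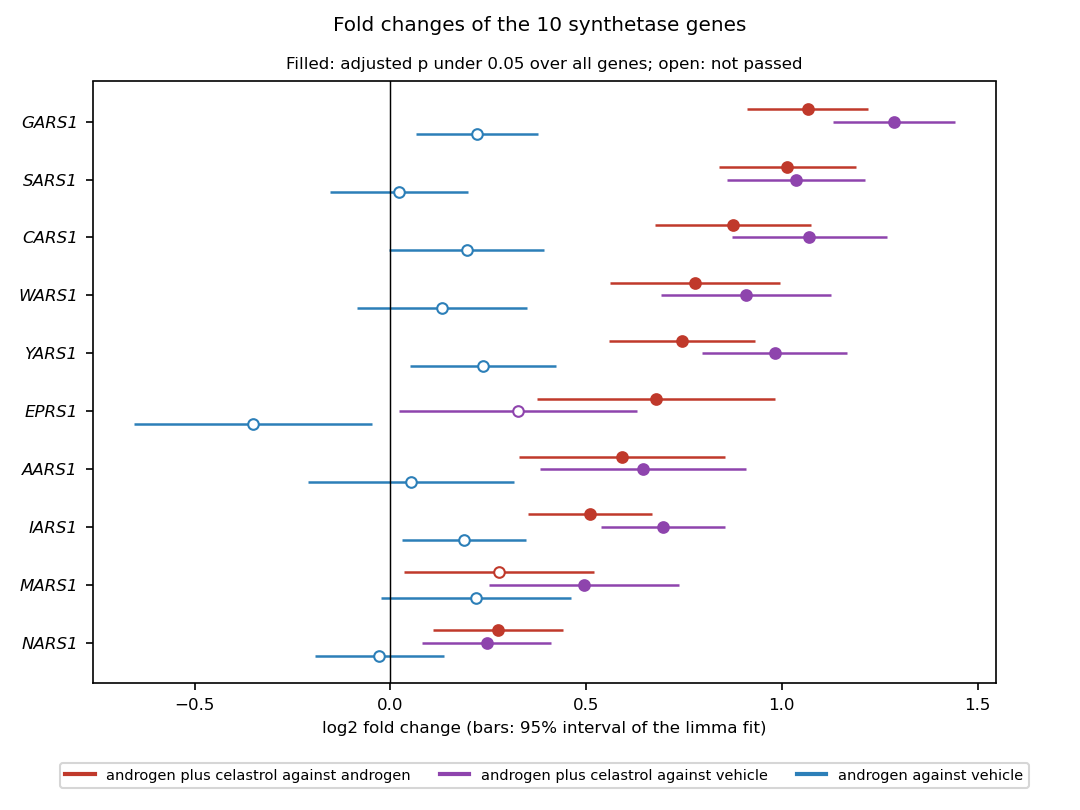
Log2 fold change of each synthetase gene (points) with its 95% interval from limma (lines) in 3 comparisons: androgen plus celastrol against androgen, androgen plus celastrol against vehicle, and androgen against vehicle; filled points have an adjusted p under 0.05. GARS1 is at the top with 1.07 and 1.29 in the celastrol comparisons, while in androgen against vehicle all points are open and EPRS1 is lowest, at -0.35.

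CARS1, EPRS1, MARS1 and WARS1 each had more than 1 single-gene probe set, a probe set being a group of short probes summarised to 1 value. When all 19724 were fitted, 14 of the 16 synthetase probe sets rose with androgen plus celastrol against androgen (background 7.25% higher) and 13 rose against vehicle (background 11.5% higher). CARS1 rose by 0.95 against androgen in its dimmer probe set, where the celastrol arrays read 621.5, 524.4 and 574.6, the androgen arrays 301, 320.7 and 268.1, and the vehicle arrays 244.6, 234.9 and 188.6. The dimmer WARS1 probe set rose by 0.89, with 1384, 1477 and 1518 for androgen plus celastrol, 735.3, 799 and 825.8 for androgen, and 697, 663.3 and 708 for vehicle. Both therefore moved in the same direction as the brighter probe set of their gene.

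The 3 EPRS1 probe sets all read lowest with androgen. The probe set of middle brightness had 1873, 1910.1 and 1915 with androgen plus celastrol, 1324, 1254 and 1054 with androgen, and 1572, 1693 and 1520.3 with vehicle. Against androgen, the 3 EPRS1 probe sets rose by 0.86 (the dimmest), 0.68 (the brightest) and 0.66 (the middle one). In androgen against vehicle, 2 synthetase probe sets fell (background 4.60% lower) and both were of EPRS1: the middle one by 0.40 and the dimmest by 0.36 (limma over all probe sets, adjusted p = 0.0331 and 0.0473). The brightest, which represents the gene above, had -0.35 (adjusted p = 0.163).

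The MARS1 probe sets did not give 1 answer. Against androgen, the probe set of middle brightness rose by 0.36 (limma over all probe sets, adjusted p = 0.0296), with 1538, 1381 and 1545.5 for androgen plus celastrol, 1174, 1104 and 1209.9 for androgen, and 995.8, 970.6 and 1095 for vehicle. The brightest had 0.28 (adjusted p = 0.153) and the dimmest 0.40 (adjusted p = 0.166). With the MARS1 probe sets averaged, MARS1 passed at 0.35 (limma, adjusted p = 0.0197). In the RefSeq annotation MARS1 overlaps the protein-coding genes ARHGAP9 and DDIT3, and DDIT3 rose in this comparison; its part in the MARS1 values was not tested.

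**Figure D3:**
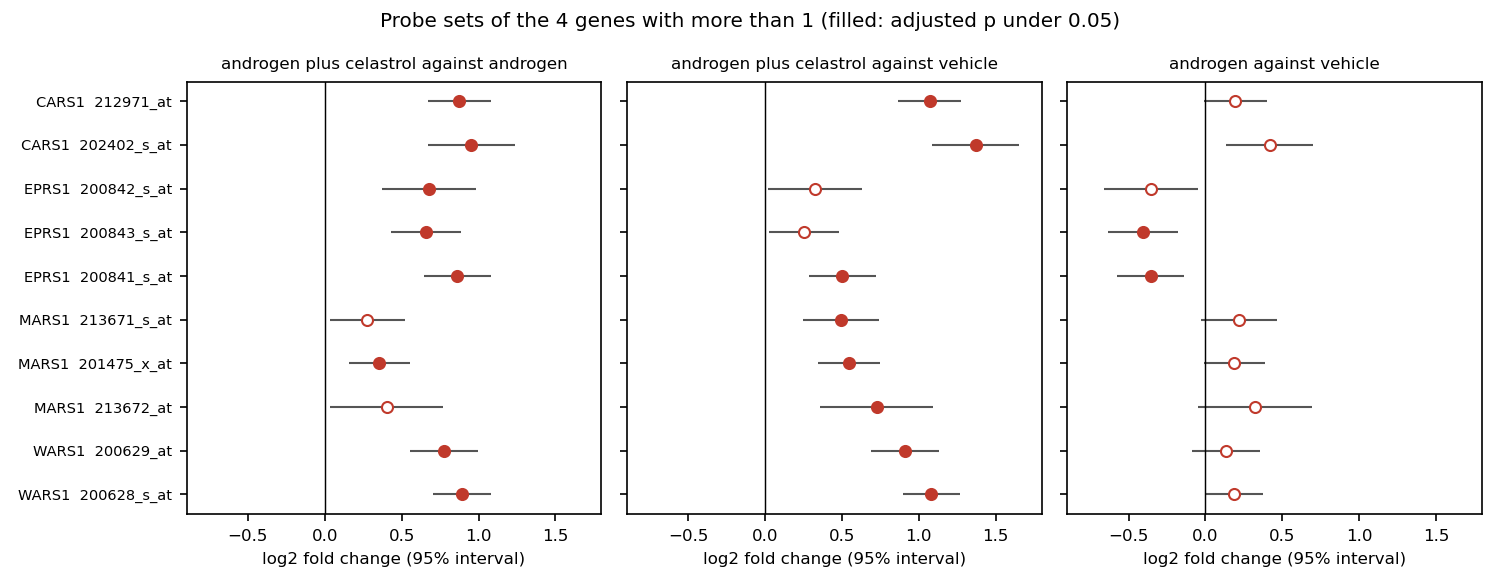
Log2 fold change with 95% interval (limma over all single-gene probe sets) for every probe set of CARS1, EPRS1, MARS1 and WARS1, with 1 panel for each of the 3 comparisons. Probe sets of a gene lie on the same side of 0 in every panel, and the EPRS1 probe sets lie above 0 against androgen (0.86, 0.68 and 0.66) and below 0 for androgen against vehicle.

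Values were also taken for 8 other cytosolic synthetases. With androgen plus celastrol against androgen, 0 of the 8 rose and 0 fell by limma (background 9.0% higher and 7.24% lower). Of the 8, 1 had an unadjusted p under 0.05, as 26.8% of all genes did. Their median was 0.01, against 0.71 in the 10 genes and 0.02 over all genes. The 10 genes were chosen with earlier results of these data known, so this gap is a description and not a test. The gene of the 8 with an unadjusted p under 0.05 was HARS1, the histidine enzyme. HARS1 read 1594 to 1640.2 with androgen plus celastrol, 1105 to 1230.0 with androgen and 719 to 1082 with vehicle. These ranges did not overlap, but the difference from androgen, 0.48 ± 0.15 (limma, adjusted p = 0.0596), did not pass. HARS1 passed under 7 of 18 alternatives, among them the fit without vehicle array 3 (limma, adjusted p = 0.00178). NARS1, which was called in the main fit, passed under 6 of 18. TARS1, the threonine enzyme, had 0.01 ± 0.08 against androgen (95% interval -0.18 to 0.20, limma, adjusted p = 0.96). The TARS1 promoter window held TGATGCAA. TARS1 read 3372 to 3789 with androgen plus celastrol, 3364 to 3768 with androgen and 2466 to 2659.7 with vehicle, and it rose with androgen against vehicle by 0.46 ± 0.08 (limma, adjusted p = 0.00557). That made it the single cytosolic synthetase among the 18 measured that passed for androgen, where 7.17% of all genes were called higher.

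The remaining 6 had log2 differences from -0.19 to 0.16 between androgen plus celastrol and androgen. These were 0.16 for RARS1 (arginine), 0.14 for LARS1 (leucine), 0.02 for FARSA (a phenylalanine subunit), -0.01 for KARS1 (lysine), -0.15 for VARS1 (valine) and -0.19 for QARS1 (glutamine). Against vehicle, androgen plus celastrol left 3 of the 8 higher, where 13.3% of all genes were. These were HARS1 by 0.79, TARS1 by 0.47 and RARS1 by 0.32 (limma, adjusted p = 0.0043, 0.00311 and 0.0182). RARS1 did not pass without celastrol array 3, vehicle array 1 or vehicle array 2 (adjusted p of 0.0574 to 0.0627). Grouped by place in the cell, the 7 measured enzymes of the multi-synthetase complex had 2 higher with androgen plus celastrol against androgen and a median of 0.16. The 11 measured outside the complex had 7 higher and a median of 0.59, where 9.0% of all genes were higher with a median of 0.02. The difference between these groupings was not tested. Of the 3 scaffold proteins, only AIMP1 was measured, at 0.13 (adjusted p = 0.422).

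Of the 17 mitochondrial synthetases, 11 were measured. With androgen plus celastrol against androgen, 0 rose and 3 fell (background 9.0% higher and 7.24% lower), with a median of -0.18. An unadjusted p under 0.05 in either direction was found for 5, where 26.8% of all genes had one. NARS2 fell by 0.75 ± 0.08 (limma, adjusted p = 0.000515), with 352 to 395 for androgen plus celastrol, 594.5 to 640.1 for androgen and 618 to 696 for vehicle. WARS2 fell by 0.48 ± 0.10 (adjusted p = 0.0137) and IARS2 by 0.41 ± 0.09 (adjusted p = 0.0169). The 3 called genes are the mitochondrial counterparts of NARS1, WARS1 and IARS1, each of which rose in the same fit. The count was 1 without celastrol array 2. WARS2 also did not pass without androgen array 2 (adjusted p = 0.0595), and IARS2 without celastrol array 1, androgen array 1 or androgen array 3 (adjusted p of 0.0513 to 0.0662). Among those that did not pass, HARS2 had 0.05, LARS2 -0.13 and FARS2 0.48 (limma, adjusted p = 0.0859 for FARS2). FARS2 passed without vehicle array 3 (adjusted p = 0.00776). The called genes were not the same for androgen plus celastrol against vehicle. There NARS2 had -0.84, IARS2 -0.55 and LARS2 -0.30 (limma, adjusted p = 0.000132, 0.00265 and 0.0315). These were the 3 called lower of the 11, and 0 were higher. Of all 12165 genes, 2840 changed in either direction there and 13.3% were higher. WARS2 did not pass in that comparison (-0.30, adjusted p = 0.0744). LARS1, the cytosolic counterpart of LARS2, had -0.01 there.

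**Figure D4:**
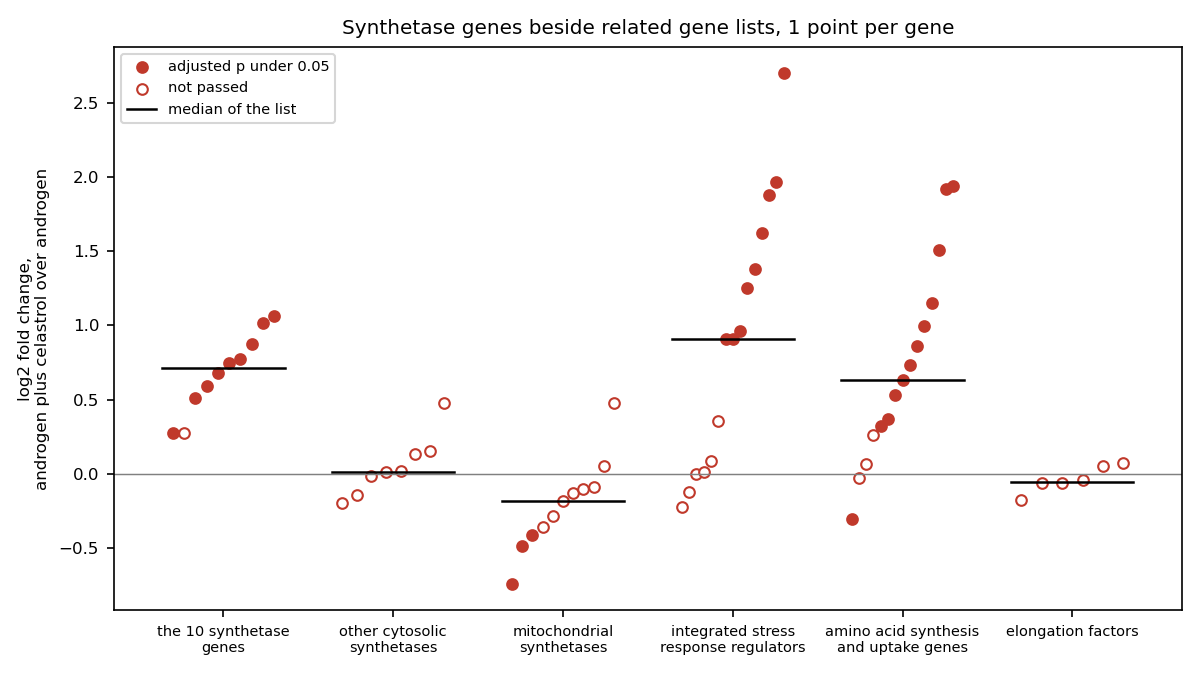
Log2 fold change in androgen plus celastrol against androgen for the genes of 6 lists (points, 1 per gene; black lines are list medians). The 10 synthetases have a median of 0.71 and the integrated stress response regulators 0.91, while the other cytosolic synthetases (0.01) and the elongation factors (-0.05) lie around 0 and the mitochondrial synthetases (-0.18) below it. The lists were chosen with earlier results of these data known.

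Regulators of the stress pathway known to control many of these genes were counted as well. Of 18 regulators of the integrated stress response, 15 were measured. With androgen plus celastrol against androgen 9 rose and 0 fell (background 9.0% higher and 7.24% lower), with a median of 0.91. At an unadjusted p under 0.05 in either direction there were 11, against 26.8% of all genes. DDIT3, the stress transcription factor also called CHOP, rose by 2.70 ± 0.14, and CHAC1, which breaks down glutathione, by 1.97 ± 0.10 (limma, adjusted p = 1.93e-05 for each). TRIB3, a pseudokinase that restrains ATF4, rose by 1.88 ± 0.21 and the transcription factor ATF3 by 1.62 ± 0.18 (limma, adjusted p = 0.000465 and 0.000532). All 3 androgen arrays gave ATF3 the same value, 595.6. ATF4 itself, named after its values were seen, read 6603 to 7577 with androgen plus celastrol, 3468 to 4120 with androgen and 3300.3 to 3906 with vehicle, and rose by 0.91 ± 0.11 (limma, adjusted p = 0.000608). EIF2S1, the eIF2 subunit that is phosphorylated, had -0.22 (adjusted p = 0.0737), and the kinase EIF2AK1 had 0.09 (adjusted p = 0.554). Against vehicle, androgen plus celastrol left 12 of the 15 higher and 0 lower, where 13.3% of genes were higher. EIF2S1 was higher there, at 0.26 (limma, adjusted p = 0.0296), and EIF2AK1 had -0.04 (adjusted p = 0.763). Levels of RNA do not show phosphorylation.

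Of 15 genes for amino acid synthesis and uptake that ATF4 is known to induce, all were measured. With androgen plus celastrol against androgen 11 rose and 1 fell (background 9.0% higher and 7.24% lower), with a median of 0.63. SLC7A11 and SLC3A2, the subunits of the cystine importer, rose by 1.94 ± 0.10 and 1.92 ± 0.17 (limma, adjusted p = 1.41e-05 and 0.000156). SLC7A5, which pairs with SLC3A2 to import large neutral amino acids, rose by 1.51 ± 0.11, and PSAT1, of serine synthesis, by 1.15 ± 0.10 (limma, adjusted p = 6.01e-05 and 0.000129). PSPH, the last enzyme of serine synthesis, had 0.07 and PYCR1, of proline synthesis, -0.03. The gene that fell, ALDH18A1, which starts proline synthesis and was named after its value was seen, had -0.30 (limma, adjusted p = 0.0258). It did not pass without any 1 of celastrol arrays 1 and 2 and androgen arrays 1, 2 and 3 (adjusted p of 0.0661 to 0.0907). With a replicate block its adjusted p was 0.0656. Against vehicle, androgen plus celastrol left 12 of the 15 higher and 0 lower, where 13.3% of genes were higher. PYCR1 was higher there, at 0.36 (limma, adjusted p = 0.0315). PSPH had 0.20 (adjusted p = 0.192) and ALDH18A1 -0.17 (adjusted p = 0.143), and neither passed. In the promoter windows, TGATGNAA was found in 3 of the 13 stress regulators and 4 of the 11 amino acid genes that had one, beside 3 of the 11 interferon response genes, 1 of 6 other cytosolic and 1 of 11 mitochondrial synthetases, where 3.44% of measured genes with a window hold it.

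Because WARS1 is interferon-induced, 14 interferon response genes were also counted. Of the 13 measured, 2 rose and 0 fell with androgen plus celastrol against androgen, where 9.0% of all genes rose and 7.24% fell. Their median was 0.11, and 4 of the 13 had an unadjusted p under 0.05 in either direction, as 26.8% of all genes did. The 2 that rose were PSMB9, an immunoproteasome subunit, by 0.83 (limma, adjusted p = 0.0264), and TAP1, a peptide transporter, by 0.50 (adjusted p = 0.0115). PSMB9 is dim, with 38.2 to 63.9 for androgen plus celastrol, 25.4 to 31.9 for androgen and 24.5 to 36.4 for vehicle, and it did not pass without celastrol array 1 or 3 or without any 1 of the androgen arrays (adjusted p of 0.0547 to 0.0979). TAP1 did not pass without androgen array 2 or androgen array 3 (adjusted p = 0.0534 and 0.0509). ISG15, a ubiquitin-like interferon target, had 0.15 (adjusted p = 0.582), and GBP2, an interferon-induced GTPase, had 0.52 (adjusted p = 0.0675). Against vehicle, 1 of the 13 was higher and 1 lower with androgen plus celastrol. There 13.3% of genes were higher, and 2840 of 12165 changed in either direction. PSMB9 was the higher one, at 0.78 (limma, adjusted p = 0.0259), and TAP1 did not pass (0.33, adjusted p = 0.0534). 

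Among factors that use charged tRNA, no elongation factor was called with androgen plus celastrol against androgen. All 6 elongation factors were measured, and 0 rose and 0 fell by limma (background 9.0% higher and 7.24% lower). The median was -0.05, and 0 had an unadjusted p under 0.05, where 26.8% of all genes had one. EEF1A1, which carries charged tRNA to the ribosome, had -0.04, and EEF2, which drives translocation, had 0.05. EEF1A2, named after its values were seen, was called lower against vehicle. It had -0.51 with androgen plus celastrol and -0.45 with androgen (limma, adjusted p = 0.0026 and 0.00819). It was the 1 called of the 6 in each comparison, where 2840 and 1583 of 12165 genes changed in either direction. Of 10 enzymes and transporters that act on tRNA, 4 were measured. With androgen plus celastrol against androgen 2 of these rose and 0 fell (background 9.0% higher and 7.24% lower). XPOT, the exporter of tRNA from the nucleus, rose by 0.51 ± 0.07 (limma, adjusted p = 0.00211), with 4782 to 4999.7 for androgen plus celastrol, 3236 to 3610.0 for androgen and 3277.5 to 3437 for vehicle. The methyltransferase TRMT1 rose by 0.51 ± 0.15 (adjusted p = 0.046) and did not pass without any 1 celastrol array, any 1 androgen array or vehicle array 2 (adjusted p of 0.0543 to 0.147), or with a replicate block (adjusted p = 0.0606). With probe sets averaged per gene, TRMT1 had 0.29 (limma, adjusted p = 0.125). ELAC2, a tRNA processing nuclease, had -0.25 (adjusted p = 0.0664) and PUS1, a pseudouridine synthase, -0.40 (adjusted p = 0.341). Against vehicle, androgen plus celastrol left 2 of the 4 higher and 1 lower. There 13.3% of genes were higher, and 2840 of 12165 changed in either direction. XPOT had 0.55, TRMT1 0.57 and ELAC2 -0.34 (limma, adjusted p = 0.000764, 0.0217 and 0.0137), and TRMT1 passed under 14 of 18 alternatives.

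Over the 9 arrays the members followed each other to different degrees. The Pearson correlation of each member with the mean of the other 9, each centred on its own mean, was 0.9958 for GARS1, 0.9906 for SARS1 and 0.9841 for YARS1. It was 0.8386 for MARS1 and 0.6923 for EPRS1, the lowest. These are descriptions over 9 arrays that share 3 treatments, so they mostly carry the gap between groups. The mean of the 10 centred genes was 0.47, 0.49 and 0.49 log2 on the celastrol arrays, -0.18, -0.20 and -0.22 on the androgen arrays, and -0.26, -0.25 and -0.34 on the vehicle arrays, the lowest being vehicle array 3. Among 3169 genes whose arrays spanned at least 1 log2, those most like this mean over the 9 arrays were NQO2 (Pearson r of 0.9984), NIBAN1 (0.9977), SERPINB8 (0.9975), MT1F (0.996) and PIR (0.9959). NQO2 averaged 3763 with androgen plus celastrol, 1118 with androgen and 958.1 with vehicle. NIBAN1 averaged 1255 with androgen plus celastrol, 77.5 with androgen and 50.0 with vehicle, a wider gap than in any of the 10 synthetases.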

How the data were processed

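The deposited values are linear intensities, with RMA named in the submitters' processing notes; its version is not given in the sources used here, nor is the probe set definition. RMA aims to bring arrays to a common distribution, which can hide a shift of most genes at once. The deposited arrays still differed, with upper quartiles of 332.5 on vehicle array 3 and 377.4 to 408.7 on the others. Of 22215 probe sets, 568 had several genes and 1923 none listed, and the gene IDs of 19707 were found in the RefSeq gene table that gave current symbols. Each of 12165 genes was represented by its probe set with the highest mean over 9 arrays, and 4505 genes had more than 1. Log2 intensities (pseudocount 0) of the 9 arrays entered 1 limma model (limma 3.58.1, R 4.3.3; 6 residual and 2.7 prior degrees of freedom), with Benjamini-Hochberg adjustment over all genes and a threshold of 0.05. The fit was tested on simulated data. The 3 arrays per group limit the precision, and log2 fold changes against androgen had a median standard error of 0.13. No 2 arrays held identical values (highest correlation 0.9971). Depth does not apply to arrays.

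The synthetase genes, gene lists and tests were chosen with earlier results of these data known. Named genes were the 10 synthetases, all other cytosolic synthetases and scaffold proteins, up to 4 called and 2 not called genes of each other list, the 5 most similar genes, KLK3 and HMOX1. FARS2, ATF4, ALDH18A1 and EEF1A2 fall outside that rule and were named after their values were seen. Promoters were taken from RefSeq (GRCh38.p14).

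Replicate numbers come from the labels. For androgen and vehicle, arrays of the same number deviated together over genes (correlations of 0.40, 0.37 and 0.63). Androgen array 1 also had 0.41 with vehicle array 2, and androgen array 2 had 0.30 with vehicle array 1. Only number 3 was therefore told apart, and pairing of numbers 1 and 2 was not shown. The main fit held no replicate block, which was an alternative only. For androgen plus celastrol the correlations were -0.09, 0.21 and -0.19 with androgen and -0.25, 0.11 and -0.29 with vehicle. Alternatives were a replicate block, single arrays left out, only the compared groups fitted, median centring, quantile normalization, averaged or separate probe sets, a filter on dim genes, an intensity trend and a pseudocount of 16.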

Additional observations from a re-analysis of the deposited data

How the results depend on the processing

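Gene values were followed through the alternatives for the measured cytosolic synthetases and for IARS2, NARS2, WARS2, FARS2, ALDH18A1, PSMB9, TAP1, TRMT1 and XPOT. None of these changed direction past the threshold. The other named genes were not followed. AARS1, CARS1, EPRS1, GARS1, IARS1, SARS1, WARS1 and YARS1 passed under 18 of 18 alternatives for androgen plus celastrol against androgen. NARS1 passed under 6 of 18 (adjusted p of 0.00124 to 0.123) and MARS1 under 1. Against vehicle, NARS1 passed under 6 of 18 and EPRS1 under 2, with array medians subtracted (0.39, adjusted p = 0.0372) and with probe sets averaged (0.36, adjusted p = 0.0141). With single arrays left out, 8 to 9 synthetases were called higher in each celastrol comparison, and 0 to 1 lower for androgen against vehicle, the 1 being EPRS1 without vehicle array 3. For androgen against vehicle, where 0 were called higher, 2 were with array medians subtracted, 1 with probe sets averaged, 2 with the dimmest 40% of genes left out, 3 with an intensity trend and 1 with a pseudocount of 16. Where 0 were called lower, 1 (EPRS1) was with probe sets averaged and 1 with every probe set fitted. The replicate block left 8 synthetases higher in each celastrol comparison and 1716 and 2688 genes changed, and for androgen against vehicle 1406 genes, against 1583 without it. It changed no synthetase call for androgen. The block with only the compared groups fitted, chosen after seeing the data, gave 6 synthetases higher and 1099 genes changed against vehicle, where the numbers did not pair the arrays, against 2840 genes. With single arrays left out, all changed genes ranged from 1306 (without androgen array 2) to 2667 around 1976 against androgen, from 2285 to 2935 around 2840 against vehicle, and from 1078 to 1836 around 1583 for androgen. The causes were not tested. PSMB9 lies below the array medians (72.2 to 80.2), and detection calls were not used here.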
